A study of Mus musculus with 6 samples.

Results

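The miR-26, miR-103 with miR-107, and miR-101 families are small groups of near-identical microRNAs (miRNAs), most of which are made from introns of protein-coding host genes. They were taken from the table of known miRNAs by name, as every strand and locus of mmu-miR-26a, mmu-miR-26b, mmu-miR-103, mmu-miR-107, mmu-miR-101a and mmu-miR-101b. This gave 8 mature strands from 8 precursors, of 535 mature miRNAs and 436 precursors in all, and all 8 strands had enough counts to be tested. Small RNA was sequenced from nephron progenitors (MNP, 3 libraries) and whole kidney (MWK, 3 libraries) of CD1 mouse embryos at embryonic day 15.5. By the methods of the study, 3 biological replicates came from 3 litters. Nephron progenitors were released by limited digestion and enriched by magnetic depletion of cells carrying CD140a, CD105, Epcam or Ter119, and what was left of the kidneys after that digestion served as whole kidney. The miRNeasy Micro Kit was used for RNA of the progenitors and the miRNeasy Mini Kit for whole kidney, so the group, the kit and the isolation of cells cannot be told apart. The labels only number the replicates, the word biological being that of the methods, and p-values measure the spread between these libraries.

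A miRNA precursor is a short hairpin from which Dicer releases a duplex. The strand that is loaded into Argonaute (the guide) pairs with target mRNAs mainly through its seed, the stretch from base 2 to base 8, and the other strand (the passenger) is mostly degraded. Loss of Dicer from mouse nephron progenitors depletes them early, and Ezh2, a histone methyltransferase, is a well-known target of miR-101 and miR-26. miR-103 is often used as a reference in qPCR because its level tends to be similar between tissues.

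After the highest count over the rows of each mature miRNA was kept, 393951, 436112 and 333850 counts were held by MNP1, MNP2 and MNP6. For whole kidney, MWK1, MWK2 and MWK6 held 349241, 360221 and 355848. Levels are given in CPM, counts brought to a common library total, scaled by the trimmed mean of M-values (TMM), in which 3 counts correspond to between 6.54 and 9.45 CPM. Reads carry no molecular identifiers, so counting intervals and this floor cover counting error only. Ligation to adapters differs between sequences, so an order of levels between miRNAs is an order of sequenced reads. In bulk samples such as these, fewer cells of a type and less RNA per cell cannot be told apart. Pairs of libraries within a group differed by more than sampling noise, and more so in nephron progenitors. There, chi-square divided by its degrees of freedom lay between 20.6 and 55.0. For pairs of whole kidney libraries it lay between 2.90 and 8.82.

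The guide strands are shown because they explain both how each family is defined and how far its members can be separated by sequence. All 8 strands had an entry in RefSeq (GRCm38.p6), as did 440 of the 535 mature miRNAs. Capitals mark bases 2 to 8.
miR-26a-5p: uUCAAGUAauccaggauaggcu
miR-26b-5p: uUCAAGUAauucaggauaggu
miR-103-3p: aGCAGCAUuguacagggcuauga
miR-107-3p: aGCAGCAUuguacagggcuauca
miR-101a-3p: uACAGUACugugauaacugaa
miR-101b-3p: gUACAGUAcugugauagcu

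With positions counted from 1 at the 5′ end of the strand named first, miR-26a-5p and miR-26b-5p differed at C11U and C21U over 21 aligned bases. miR-103-3p and miR-107-3p differed only at G22C over 23 bases, close to the 3′ end. Each of these pairs shared its whole seed. miR-101a-3p and miR-101b-3p differed at A16G over 18 aligned bases, and the annotated start of miR-101b-3p lay 1 base earlier, which moved its seed by 1 base relative to that of miR-101a-3p.

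In the miR-26 family, miR-26a-5p was the most abundant of the 8 strands. It was at 19322, 18012 and 16085 CPM in MNP1, MNP2 and MNP6 and at 16340, 17095 and 15754 CPM in MWK1, MWK2 and MWK6. The groups overlapped, since MNP6 lay below both MWK1 and MWK2. The mean of nephron progenitors was 17806 ± 1628 CPM and that of whole kidney 16396 ± 672 CPM (SD, n = 3 each). The log2 fold change of nephron progenitors over whole kidney was 0.12 (standard error 0.13, 95% confidence interval -0.17 to 0.41, adjusted p = 0.57). Unless another tool is named, every adjusted p given here is from the quasi-likelihood test of edgeR, with Benjamini-Hochberg adjustment over all tested miRNAs and a threshold of 0.05. With library totals alone as the scaling, the log2 fold change of miR-26a-5p was 0.32 (adjusted p = 0.039), while the median of all miRNAs moved by 0.20, and without MNP1 it was 0.06 (adjusted p = 0.77). This strand ranked 14 of the 525 tested miRNAs by mean CPM. Its sequence is the same from mir-26a-1 and mir-26a-2, and the counts listed for the 2 precursors differed by at most 7 in any library, so the loci cannot be separated by this strand.

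miR-26b-5p was at 968, 902 and 723 CPM in MNP1, MNP2 and MNP6 and at 1004, 1193 and 884 CPM in MWK1, MWK2 and MWK6. MNP1 and MNP2 lay between the lowest and the highest whole kidney library, and MNP6 lay below all 3. The log2 fold change was -0.25 (standard error 0.19, 95% confidence interval -0.67 to 0.17, adjusted p = 0.38), and with library totals -0.05 (adjusted p = 0.88). Without MWK2 it was -0.14 (adjusted p = 0.73). As a percentage of miR-26a-5p in the same library, miR-26b-5p was at 5.01, 5.01 and 4.49 in MNP1, MNP2 and MNP6 and at 6.15, 6.98 and 5.61 in MWK1, MWK2 and MWK6. This ratio, which needs no scaling between libraries, was lower in all 3 nephron progenitor libraries than in any whole kidney library. The difference in log2 ratio was -0.37, with p = 0.1 in a two-sided exact permutation test, the smallest p that 3 against 3 libraries allow.

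In the miR-103 and miR-107 family, miR-103-3p was at 2900, 2619 and 2783 CPM in MNP1, MNP2 and MNP6 and at 3040, 3448 and 3287 CPM in MWK1, MWK2 and MWK6. All 3 nephron progenitor libraries lay below all 3 whole kidney libraries, by a small margin between MNP1 and MWK1, and the groups overlapped with library totals as the only scaling. The means were 2767 ± 142 and 3258 ± 205 CPM (SD, n = 3 each), and the log2 fold change of -0.24 (standard error 0.15, 95% confidence interval -0.56 to 0.09) was not past the threshold (adjusted p = 0.27). With library totals it was -0.03 (adjusted p = 0.91).

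miR-107-3p was the least abundant of the guide strands, with 132, 141 and 146 counts in MNP1, MNP2 and MNP6 and 131, 141 and 148 counts in MWK1, MWK2 and MWK6. After scaling, the nephron progenitor libraries were at 325, 307 and 384 CPM and those of whole kidney at 394, 444 and 432 CPM. The raw counts were nearly the same in both groups, and the separation in CPM came with the scaling for library size and composition. The log2 fold change was -0.32 (standard error 0.20, 95% confidence interval -0.76 to 0.11, adjusted p = 0.26), and with library totals -0.11 (adjusted p = 0.74). Relative to miR-103-3p in the same library, miR-107-3p was at 11.2, 11.7 and 13.8% in MNP1, MNP2 and MNP6 and at 13, 12.9 and 13.1% in MWK1, MWK2 and MWK6. The groups overlapped, with MNP6 above and MNP1 and MNP2 below all whole kidney libraries (log2 difference -0.09, two-sided exact permutation p = 0.4). The difference was -0.03 without MNP1 and -0.18 without MNP6. Because miR-103-3p and miR-107-3p differ only at G22C, reads that end before that base fit both strands. How many such reads are among the counts of miR-107-3p was not tested. Its level, fold change and ratio may therefore not be fully separate measurements from those of miR-103-3p.

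miR-103-3p is encoded by both mir-103-1 and mir-103-2, and the table lists a count for each. In MNP1, MNP2 and MNP6 the counts were 1178, 1202 and 1059 for mir-103-2 and 955, 934 and 820 for mir-103-1. In MWK1, MWK2 and MWK6 they were 1011, 1095 and 1126 for mir-103-2 and 806, 876 and 926 for mir-103-1. The mir-103-2 value was higher in every library, by a ratio between 1.22 (MWK6) and 1.29 (MNP6). The mature strand is the same at both loci, and the genomic bases that follow it are shown because they differ, with capitals marking the 6 bases beyond the annotated 3′ end in the RefSeq hairpins.
mir-103-1: agcagcauuguacagggcuaugaAGGCAU
mir-103-2: agcagcauuguacagggcuaugaAAGAAC
mir-107: agcagcauuguacagggcuaucaAAGCAC

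Which reads made up the excess listed for mir-103-2 was not tested, and these counts are not a measure of output per locus. The values above for miR-103-3p are those of mir-103-2, the higher in each library.

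In the miR-101 family, miR-101a-3p was at 2908, 3126 and 2202 CPM in MNP1, MNP2 and MNP6 and at 3133, 3435 and 2647 CPM in MWK1, MWK2 and MWK6. The groups overlapped, and MNP6 and MWK6 were the lowest library of their group. The log2 fold change was -0.16 (standard error 0.18, 95% confidence interval -0.55 to 0.23, adjusted p = 0.56), and it was 0.04 when only library totals were used for scaling. Single libraries moved it, to -0.28 without MNP2 and -0.25 without MWK6, and to -0.08 without MWK2 and -0.06 without MNP6, with adjusted p between 0.35 and 0.85 when each library was left out.

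miR-101b-3p was at 4547, 3690 and 2297 CPM in MNP1, MNP2 and MNP6 and at 5001, 4805 and 4556 CPM in MWK1, MWK2 and MWK6. All nephron progenitor libraries lay below all whole kidney libraries, with MNP1 just under MWK6 and MNP6 far below the rest. The means were 3511 ± 1136 and 4787 ± 223 CPM (SD, n = 3 each). The log2 fold change of -0.45 (standard error 0.21, 95% confidence interval -0.91 to 0.01) was not past the threshold (adjusted p = 0.13). Its size depended on single libraries, at -0.67 without MNP1 (adjusted p = 0.0041) and -0.25 without MNP6 (adjusted p = 0.21). With library totals it was -0.26 (adjusted p = 0.37), and the groups overlapped. As a percentage of miR-101a-3p, miR-101b-3p was at 156, 118 and 104 in MNP1, MNP2 and MNP6 and at 160, 140 and 172 in MWK1, MWK2 and MWK6. MNP1 lay among the whole kidney libraries in this ratio, and the difference in log2 ratio was -0.33 (two-sided exact permutation p = 0.2). It was -0.50 without MNP1 and -0.20 without MNP6.

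A strand named miR-101c shares counts with miR-101a-3p. Its RefSeq sequence starts 1 base later and has 0 differences from miR-101a-3p over 19 aligned bases.
miR-101c: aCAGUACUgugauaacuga

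On precursor mir-101a the counts listed for the 2 names differed by at most 3 in any library, whereas on its own precursor miR-101c had between 6 and 18 counts. The level of miR-101c is therefore not a separate measurement from that of miR-101a-3p.

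The passenger strands miR-26a-2-3p and miR-26b-3p were the 2 of the 8 strands that passed the threshold, and both were higher in nephron progenitors. They are shown because they share a seed with each other, unlike that of the guide strands, with capitals again at bases 2 to 8.
miR-26a-2-3p: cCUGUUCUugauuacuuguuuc
miR-26b-3p: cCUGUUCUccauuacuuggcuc

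miR-26a-2-3p, which unlike miR-26a-5p is specific to the mir-26a-2 locus, had 31, 39 and 27 counts in MNP1, MNP2 and MNP6 and 14, 13 and 11 counts in MWK1, MWK2 and MWK6. This was 76.3, 85.0 and 71.0 CPM against 42.1, 40.9 and 32.1 CPM in whole kidney, with no overlap between the groups. The means were 77.4 ± 7.07 and 38.4 ± 5.46 CPM (SD, n = 3 each). The log2 fold change was 1.01 (standard error 0.28, 95% confidence interval 0.41 to 1.61, adjusted p = 0.011), with all 3 nephron progenitor libraries above all 3 whole kidney libraries. The call was lost without MNP2 (0.92, adjusted p = 0.051) and with DESeq2's Wald test (1.04, adjusted p = 0.060).

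miR-26b-3p had 11, 12 and 8 counts in MNP1, MNP2 and MNP6 and only 3, 3 and 2 counts in MWK1, MWK2 and MWK6. In CPM this was 27.1, 26.1 and 21 against 9.02, 9.45 and 5.84, again with no overlap. Because every whole kidney library held 3 counts or fewer, the size of the difference is given from the summed counts, 31 against 8, which after scaling gave a ratio of 3.09 (95% exact counting interval 1.39 to 7.78). The same calculation for miR-26a-2-3p, with 97 against 38 counts, gave 2.03 (1.38 to 3.04). Neither interval includes the spread between libraries. The fitted log2 fold change of miR-26b-3p was 1.58 (standard error 0.49, 95% confidence interval 0.52 to 2.65, adjusted p = 0.022). It was not past the threshold with DESeq2 (1.64, adjusted p = 0.12) or without MNP2 (1.52, adjusted p = 0.072), MWK2 (1.69, adjusted p = 0.054) or MWK6 (1.40, adjusted p = 0.064). In the 4 libraries that carry a replicate number, it was 1.46 both with that number as a block (adjusted p = 0.083) and without it (adjusted p = 0.057).

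Set against its guide strand, miR-26a-2-3p was at 0.395, 0.472 and 0.441% of miR-26a-5p in MNP1, MNP2 and MNP6 and at 0.258, 0.239 and 0.204% in MWK1, MWK2 and MWK6. Every nephron progenitor library lay above every whole kidney library (log2 difference 0.90, two-sided exact permutation p = 0.1, the smallest possible). The miR-26a-5p in this ratio comes from both loci, so it is not the ratio of the arms of a single hairpin. The other strands that RefSeq lists for these precursors, miR-26a-1-3p, miR-101a-5p, miR-101b-5p, miR-103-1-5p, miR-103-2-5p and miR-107-5p, were not analysed here.

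**Figure D1:**
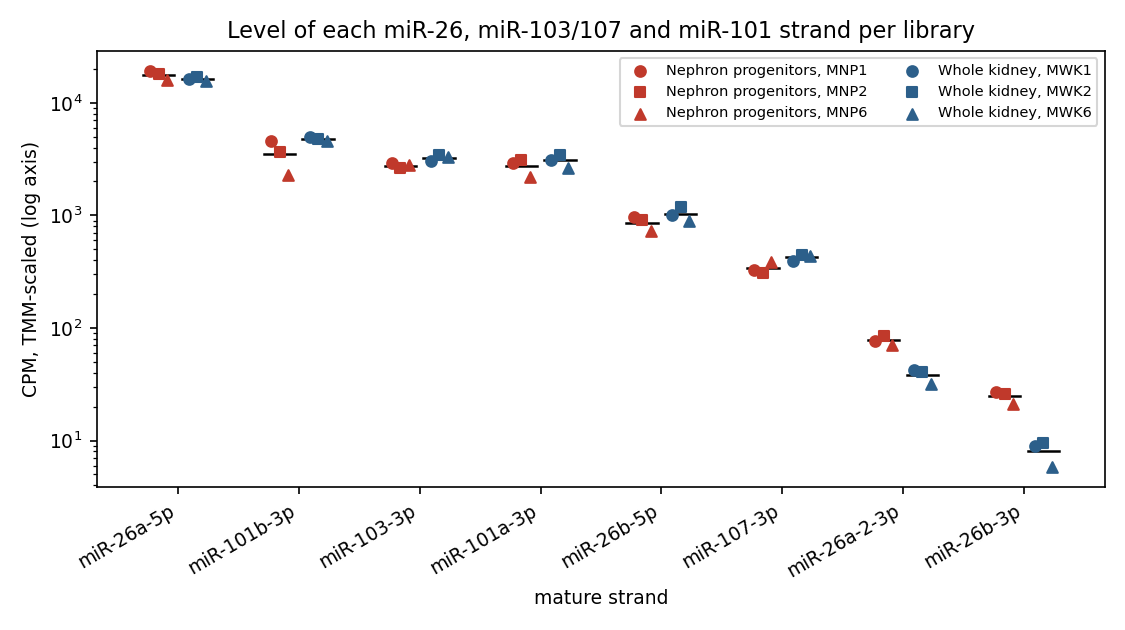
Level of each strand in every library, in TMM-scaled CPM on a log axis, with nephron progenitor libraries in red, whole kidney libraries in blue and a black line at each group mean (n = 3). The groups are farthest apart, relative to their level, for miR-26a-2-3p (77.4 against 38.4 CPM) and miR-26b-3p (24.7 against 8.10 CPM).

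Over the 8 strands, 2 passed the threshold, both higher and 0 lower in nephron progenitors. Among all 525 tested miRNAs 36.6% passed, 19.4% higher and 17.1% lower. Of the 2, miR-26b-3p reached the filter of more than 10 summed counts through nephron progenitors (31 counts, against 8 in whole kidney). With more than 10 counts required in every library, it was not tested, and miR-26a-2-3p was the only member called, beside 120 of 260 miRNAs. DESeq2 called 0 of the 8 and 163 of the 525, and at an unadjusted p under 0.05 edgeR gave 2 of the 8 and 219 of the 525 (41.7%). The groups did not overlap in CPM for 5 of the 8 strands, compared with 46.7% of all tested miRNAs. Of these 5, 2 lay above in nephron progenitors and 3 below, beside 23.4% and 23.2% of all tested miRNAs. The 3 below, miR-103-3p, miR-107-3p and miR-101b-3p, overlapped when library totals were the only scaling. With that scaling 3 of the 8 lay above, miR-26a-5p among them, and 0 below, beside 27.8% and 17.7% of all tested miRNAs. The median log2 fold change was -0.20 over the 8 strands and -0.01 over the 525. The absolute log2 fold change had a median of 0.61 over all tested miRNAs, and each of the 6 guide strands was under that value.

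**Figure D2:**
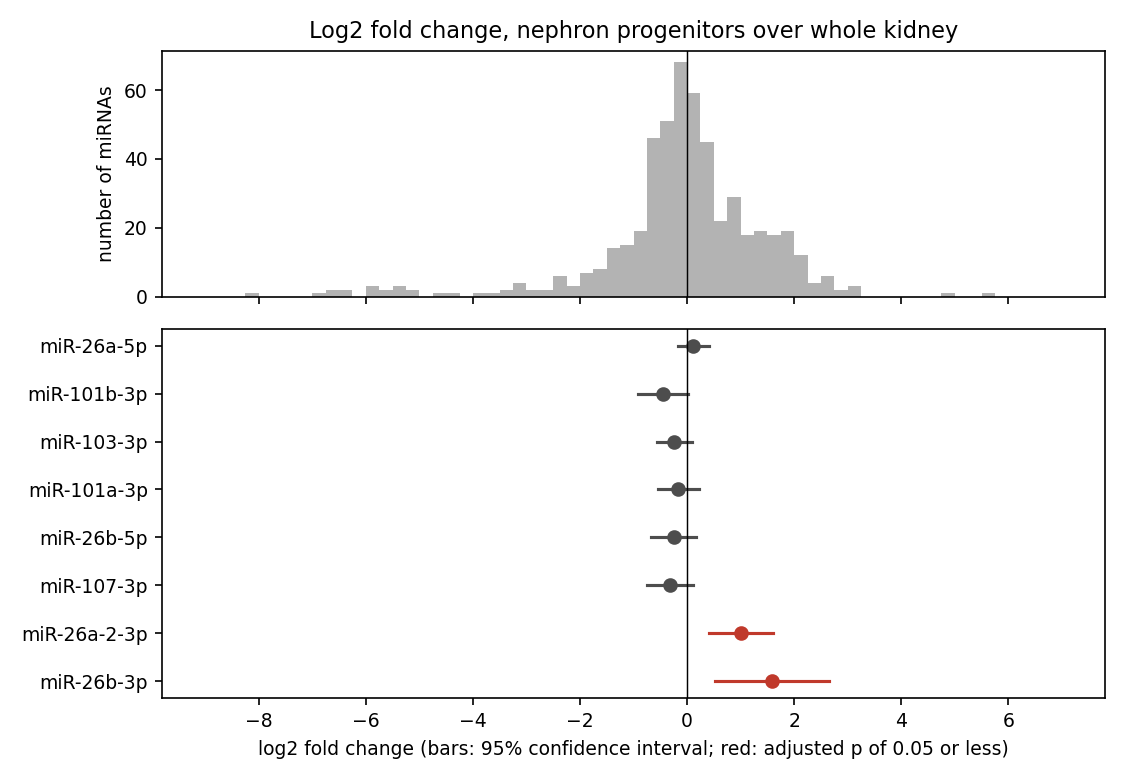
Log2 fold changes of nephron progenitors over whole kidney, as a histogram over the 525 tested miRNAs (top) and for each of the 8 strands with its 95% confidence interval (bottom), with strands past an adjusted p of 0.05 in red. The guide strands lie between -0.45 and 0.12, and miR-26a-2-3p and miR-26b-3p lie at 1.01 and 1.58.

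In order of level, miR-26a-5p stood above all other strands in every library, and miR-26b-5p, miR-107-3p, miR-26a-2-3p and miR-26b-3p followed at the lower end in that order in every library. Between them, miR-101b-3p lay above miR-101a-3p in every library of both groups. In nephron progenitors the ranges of miR-101b-3p, miR-103-3p and miR-101a-3p over the libraries overlapped, at 3511 ± 1136, 2767 ± 142 and 2745 ± 483 CPM (SD, n = 3), and miR-101b-3p lay below miR-103-3p in MNP6. In whole kidney the range of miR-101b-3p, at 4787 ± 223 CPM, lay above those of both others, while miR-103-3p and miR-101a-3p, at 3258 ± 205 and 3072 ± 398 CPM, overlapped (SD, n = 3).

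Summed over its 4 strands, the miR-26 family held 20393, 19025 and 16900 CPM in MNP1, MNP2 and MNP6 and 17396, 18339 and 16676 CPM in MWK1, MWK2 and MWK6. The miR-103 and miR-107 family held 3225, 2926 and 3167 CPM against 3434, 3892 and 3719 CPM, and the miR-101 family 7455, 6816 and 4499 CPM against 8134, 8240 and 7204 CPM. The miR-26 sums, made up mostly of miR-26a-5p, overlapped between groups in CPM. As a percentage of the counts in each library they did not, at 2.10, 2.00 and 1.93 in nephron progenitors and 1.66, 1.62 and 1.61 in whole kidney, with every nephron progenitor library above. The miR-103 and miR-107 sum was lower in every nephron progenitor library than in any whole kidney library in CPM, whereas the miR-101 sums overlapped, with MNP1 above MWK6. As a percentage of the counts in each library both families overlapped between groups, at 0.333, 0.308 and 0.361 against 0.327, 0.343 and 0.358 for miR-103 and miR-107, and at 0.769, 0.718 and 0.513 against 0.775, 0.727 and 0.694 for miR-101. Over all 8 strands the mean sum in nephron progenitors was 28135 ± 3300 CPM, and in whole kidney it was 29011 ± 1437 CPM (SD, n = 3 each). As a plain percentage of the counts in each library, the 8 strands held 3.20, 3.03 and 2.80 in nephron progenitors and 2.76, 2.69 and 2.66 in whole kidney. The direction for the whole set thus depended on the scaling, with a ratio of means of 0.970 in CPM and every nephron progenitor library above every whole kidney library in percentage of counts.

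Among the 440 mature miRNAs with a RefSeq sequence, bases 2 to 7 of a guide strand were shared by 1 outside the 3 families, miR-144-3p, which is known from erythroid cells. It has these bases in common with miR-101a-3p but differs from it at base 8, and only bases 2 to 7 are in capitals.
miR-144-3p: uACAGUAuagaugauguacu

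It was at 86.2, 43.6 and 15.8 CPM in MNP1, MNP2 and MNP6 and at 400, 390 and 187 CPM in MWK1, MWK2 and MWK6. Every nephron progenitor library was lower, and the log2 fold change was -2.73 (standard error 0.44, adjusted p = 0.00033). The groups did not overlap.

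The host genes were read from the GENCODE annotation (M21) of the build used for the counts, mm10. All 8 precursors had the same coordinates in the RefSeq table. The miR-26 precursors lie in the Ctdsp genes, which encode small phosphatases that act on the C-terminal domain of RNA polymerase II. mir-26a-1 (chr9:119031796-119031885, plus strand) lies in intron 5 of Ctdspl, whose principal transcript has 8 exons. mir-26b (chr1:74394310-74394394, plus strand) lies in intron 4 of Ctdsp1, with 7 exons. mir-26a-2 (chr10:126995530-126995613, plus strand) lies in intron 5 of the principal transcript of Ctdsp2, with 8 exons, but within an exon of 2 further transcripts of that gene, 1 protein-coding and 1 annotated as a retained intron.

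The miR-103 and miR-107 precursors lie in the Pank genes, which encode pantothenate kinases, the enzymes that control the rate of coenzyme A synthesis. mir-103-1 (chr11:35782396-35782481, plus strand) lies in intron 5 of Pank3, mir-103-2 (chr2:131288052-131288137, plus strand) in intron 5 of Pank2 and mir-107 (chr19:34820687-34820773, minus strand) in intron 5 of Pank1. In each of these genes the principal transcript has 7 exons, so the precursor holds the same place, before the last pair of exons. mir-101b (chr19:29135279-29135375, plus strand) lies in intron 8 of Rcl1, a gene for a ribosomal RNA processing factor, with 9 exons in its principal transcript. All 7 of these precursors are on the strand of their host gene.

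mir-101a (chr4:101346945-101347027, minus strand) differs, since it lies within an exon of E130102H24Rik, a long intergenic noncoding RNA gene, and in no protein-coding gene. The nearest protein-coding genes are Ak4 and Jak1, at 72250 and 81663 bases. Calling all 6 names host-gene miRNAs thus holds for a protein-coding host in every case but miR-101a. Messenger RNA of the hosts was not analysed here, so no level of a host stands beside these values.

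**Figure D3:**
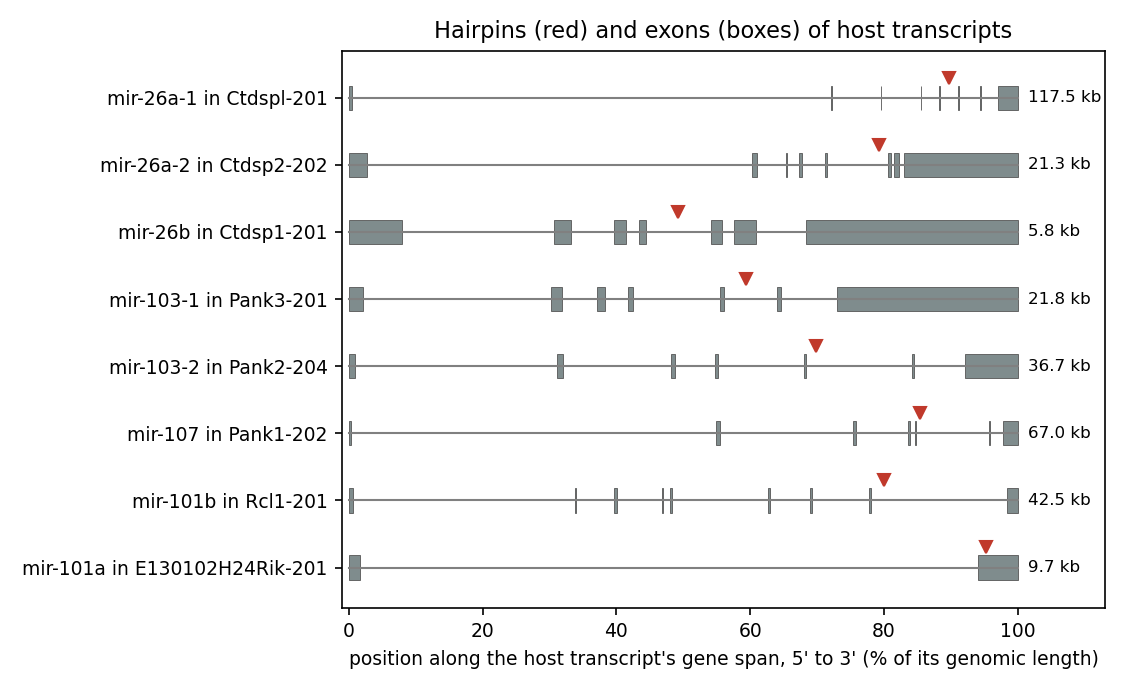
Position of each precursor hairpin (red triangle) along the genomic span of its host transcript, drawn 5′ to 3′ in percent of the span, with exons as boxes and the span in kilobases at the right. The precursors in Pank1, Pank2 and Pank3 all lie in intron 5, and mir-101a lies in an exon.

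Of the 247 mature miRNAs whose precursor lies in a protein-coding gene on the same strand, 242 were tested, of which 20 were higher and 36 lower in nephron progenitors (23.1%), with a median log2 fold change of -0.14. Over all 525 tested miRNAs 19.4% were higher and 17.1% lower (36.6% in all), with a median of -0.01. Without the 7 member strands on that list, 235 were left, with 18 higher and 36 lower (23.0%) and the same median of -0.14. The most abundant of this list was miR-10b-5p, in a Hox gene cluster, with a mean of 85821 ± 13408 CPM (SD, n = 3) for nephron progenitors and 101081 ± 2438 CPM (n = 3) for whole kidney (adjusted p = 0.20). miR-21a-5p was lower (log2 fold change -1.05, adjusted p = 0.00038) and miR-99b-5p higher (0.59, adjusted p = 0.0041) in nephron progenitors, and let-7f-5p had a log2 fold change of -0.06 (adjusted p = 0.83).

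Of 9 miRNAs often used as references in qPCR, miR-103-3p among them, 1 was higher, 0 were lower and 8 were not past the threshold, with a median log2 fold change of -0.11. The 1 past it was let-7a-5p, the most abundant, at 17077, 14186 and 12892 CPM in MNP1, MNP2 and MNP6 and at 11391, 11427 and 10651 CPM in MWK1, MWK2 and MWK6 (log2 fold change 0.40, adjusted p = 0.047). All 3 nephron progenitor libraries were above the whole kidney libraries. By size, miR-103-3p at -0.24 lay between miR-423-3p (0.10), miR-191-5p (-0.11), miR-93-5p (-0.14) and miR-25-3p (0.15), which were closer to 0, and miR-423-5p (0.41), miR-16-5p (-0.57) and miR-425-5p (-0.59), which were farther from it.

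The miRNAs most like each guide strand were found among 218 others with a mean of 100 CPM or more, by the root mean square difference of log2 CPM over the 6 libraries after each was centred on its own mean. For miR-26a-5p they were miR-149-5p (0.044), let-7i-5p (0.054) and let-7j (0.057). For miR-26b-5p they were let-7g-5p (0.067), miR-140-3p (0.081) and miR-101c (0.084), which shares its counts with the member miR-101a-3p. miR-103-3p was most like miR-106b-3p (0.082), miR-7a-5p (0.089) and miR-191-5p (0.093), and miR-107-3p most like miR-361-3p (0.123), miR-425-5p (0.128) and miR-7a-5p (0.131). miR-7a-5p was named for both miR-103-3p and miR-107-3p. Sharing was not limited to a family, since let-7g-5p and miR-101c were each named for both miR-26b-5p and miR-101a-3p. For miR-101a-3p they were miR-101c (0.0014, the same reads), let-7g-5p (0.088) and let-7f-5p (0.104), and for miR-101b-3p miR-98-5p (0.084), miR-10a-3p (0.10) and miR-16-5p (0.105). For each of these miRNAs the adjusted p between the groups was above the threshold, as for the guide strands. They were chosen by likeness to those strands over the same 6 libraries, so this is not a separate result. With 6 libraries the order among near neighbours is a description only.

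The libraries were also described by markers of cell types that a kidney sample can hold, with summed CPM given for MNP1, MNP2 and MNP6 and then for MWK1, MWK2 and MWK6. All 5 epithelial miRNAs were lower in nephron progenitors, at 214, 366 and 86.7 against 23365, 24832 and 21253, the most abundant being miR-200a-3p, and miR-141-3p had 0 counts in all 3 nephron progenitor libraries. Both endothelial strands were lower, at 419, 595 and 578 against 20132, 21311 and 18150, with miR-126a-3p the most abundant. Of 3 tubule miRNAs 2 were lower, at 864, 847 and 1064 against 2857, 2928 and 2116, with miR-192-5p the most abundant.

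Both smooth muscle and pericyte miRNAs were lower, at 21368, 28229 and 25724 against 60668, 71504 and 57415, with miR-143-3p the most abundant. All 4 erythroid miRNAs were lower, at 382, 281 and 176 against 1489, 1474 and 762, the most abundant being miR-451a in whole kidney and miR-486a-5p in nephron progenitors. Of 3 stromal miRNAs 0 passed the threshold, at 12414, 17049 and 20332 against 13006, 13823 and 13471, with miR-199a-3p the most abundant and the groups overlapping for each. Outside the list, and named after its values were seen, miR-199b-5p of the same family was higher in nephron progenitors (mean 3285 against 1901 CPM, log2 fold change 0.79, adjusted p = 0.0018). Also outside it, miR-199b-3p, with the same values as miR-199a-3p (0.23, adjusted p = 0.31), and miR-214-5p (0.28, adjusted p = 0.50) were not past the threshold. The depletion was directed at Epcam on epithelium, CD105 on endothelium, Ter119 on erythroid cells and CD140a on stroma. Among 4 leukocyte miRNAs 0 passed, at 126, 135 and 52.6 against 87.2, 100.8 and 61.3, the most abundant being miR-142a-3p in nephron progenitors and miR-142a-5p in whole kidney. miR-223-5p, also outside the list and named after its values were seen, had a mean of 15.2 CPM in nephron progenitors and 0 counts in all whole kidney libraries. It passed the filter on summed counts through nephron progenitors alone, so no weight is put on a test of it. The listed miR-223-3p was not past the threshold (log2 fold change 0.99, adjusted p = 0.28). Among 3 skeletal muscle miRNAs 1 was higher, miR-206-3p, the most abundant in nephron progenitors, where miR-1a-3p was so in whole kidney, and the sums were 300.4, 438 and 131 against 66.2, 113.4 and 61.3. The part of these cell types in the results for the 3 families was not tested.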

How the data were processed

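The authors used BBDuk for adapter trimming, Bowtie2 (2.2.3) for alignment to mm10 and miRDeep2 to quantify miRNAs known to miRBase. The deposited values are estimated counts (expected counts), not normalized, for each pairing of a mature miRNA with a precursor, on 792 rows. In 3 rows these hold fractions, and all were rounded to whole numbers before the test, which had been planned for counts. The members lie on 10 rows. Where a mature miRNA had several rows, its highest count in each library was used, and miRNAs with a sum above 10 counts over the 6 libraries were tested.

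Counts were scaled by TMM and tested with edgeR 4.0.16 (glmQLFit and glmQLFTest) in R 4.3.3, with Benjamini-Hochberg adjustment over 525 miRNAs and a threshold of 0.05. Standard errors were derived from the fold change and its F statistic. Alternatives were DESeq2 1.42.0 (the authors used 1.18.1), limma-voom (limma 3.58.1), other scalings, filters and row rules, paralogs summed, the 10 most abundant other miRNAs left out, a replicate block and each library left out. Ratios were tested by exact permutation (scipy 1.17.1). Counting intervals are exact Clopper-Pearson intervals. The steps were tested on simulated data. Figures were drawn with matplotlib 3.10.9.

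Libraries were grouped by the labels. The names of columns MNP6 and MWK6 show a group but no particular sample, so these carry no replicate number. The members and lists were chosen with earlier results of these data known. Named miRNAs are every member with a count, the 3 most alike for each guide strand, miRNAs sharing bases 2 to 7, qPCR references, up to 4 examples in protein-coding genes and cell type markers. The comparison of rows for miR-103-3p, the flanking bases, miR-101c and the ratios of summed counts were chosen after values had been seen.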

Additional observations from a re-analysis of the deposited data

How the results depend on the processing

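The 6 guide strands kept their side of the threshold in all alternatives run except miR-26a-5p under library totals (0.32, adjusted p = 0.039, range over its alternatives 0.039 to 0.77) and miR-101b-3p without MNP1 (adjusted p = 0.0041, range 0.0041 to 0.37). Leaving out each library in turn gave -0.67 to -0.25 for miR-101b-3p, -0.28 to -0.06 for miR-101a-3p, -0.34 to -0.14 for miR-26b-5p, 0.06 to 0.15 for miR-26a-5p, -0.28 to -0.20 for miR-103-3p and -0.46 to -0.27 for miR-107-3p. The difference in log2 ratio was then -0.44 to -0.28 for miR-26b-5p to miR-26a-5p and 0.81 to 0.98 for miR-26a-2-3p to miR-26a-5p. Library totals moved the median log2 fold change of all miRNAs by 0.20, and it turned miR-101a-3p to 0.04. Summed with miR-26a-5p, miR-26b-5p gave 0.08 (adjusted p = 0.69). The sum of miR-101a-3p and miR-101b-3p gave -0.35 (adjusted p = 0.16), and that of miR-103-3p and miR-107-3p gave -0.27 (adjusted p = 0.18). The number of members past the threshold was 0 with DESeq2, 1 with more than 10 counts in every library (120 of 260 miRNAs past it, miR-26b-3p not tested) and 0 to 3 when each library was left out, with 0 without MNP2, beside 144 of 508 (without MWK2) to 211 of 510 (without MNP1) of all tested miRNAs and 161 of 502 without MNP2. miR-26a-2-3p was 1.04 with DESeq2 and 0.90 to 1.09 with each library left out (adjusted p 0.0027 to 0.060 over all alternatives), and miR-26b-3p was 1.64 with DESeq2 and 1.40 to 1.69 (adjusted p 0.0096 to 0.12). With the replicate block, possible for the 4 numbered libraries, 1 member passed, as in the same libraries without it, and miR-26b-3p was 1.46 (adjusted p = 0.083), against 1.46 (adjusted p = 0.057) without the block; 153 miRNAs passed with it and 134 without. Both sample types came from 3 litters by the methods of the study, and whether equal numbers mark 1 litter is not given in the sources used here. The differences between replicates 1 and 2 had a correlation of 0.039 between the groups across miRNAs, which are not independent replicates. The cause of these changes was not tested. miR-26b-3p had 2 to 12 counts per library.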
